A study of Mus musculus with 8 samples.

Results

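Among 8204 single cells sorted as endothelium from mouse mammary tumours, 414 cells (5.05%; Wilson 95% interval 4.59 to 5.54%) carried transcripts of several epithelial genes. The interval covers counting error over the pooled cells only, and the shares of single libraries ran from 1.53 to 8.35%. A cell was taken when at least 3 of the 6 epithelial genes Epcam, Krt8, Krt18, Cldn3, Sox9 and Fxyd3 had a unique molecular identifier (UMI, 1 counted RNA molecule) and fewer than 2 of the 3 mural genes Rgs5, Pdgfrb and Notch3 did. The last condition removed 36 cells. Because UMIs of these 9 genes chose the cells, their levels are given as a description without a test. The cells are called epithelial-marker cells here, since most of them also carried the genes that define endothelium, and the data did not bear out a label of epithelial tumour cells for the set as a whole.

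The study profiled sorted live tumour endothelial cells (ECs) by droplet single-cell RNA sequencing in 4 groups of 2 libraries, from 2 mice per group. The same gating scheme is given for the live ECs sorted in the bulk and the single-cell experiments, and the bulk methods spell it out as CD31+ CD45-. Spontaneous tumours arose in MMTV-PyMT transgenic mice, in which a mammary tumour virus promoter drives polyoma middle T antigen in mammary epithelium. Implanted tumours were grown from cells of such tumours that had been cultured briefly and placed with Matrigel in the mammary fat pad of female FVB mice, so that the host vessels carried no transgene. PBS or cGAMP was injected into either kind of tumour, cGAMP being the cyclic dinucleotide that activates STING, and ECs were collected 3 h later. All groups were adult mice. The sample labels give the strain as c57bl/6 while the methods name FVB, and the strain was not settled here.

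Epcam is an adhesion molecule of most epithelia, Krt8 and Krt18 form the keratin filament pair of simple epithelium, Cldn3 is a tight-junction claudin, Fxyd3 is a regulator of the sodium pump and Sox9 is a transcription factor of epithelial progenitors. Luminal cells of the mammary gland express all of these, and their secretory lineage also makes caseins and other milk proteins. Blood vessel endothelium is defined by another set, among them Pecam1 (CD31, the usual antigen for sorting it), the junctional cadherin Cdh5 and the claudin Cldn5. In cells that sense cGAMP, STING drives type I interferon, whose receptor is found on nearly every cell type, and interferon in turn induces genes such as Isg15, Irf7 and the Ifit family.

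The 8 libraries held 654 to 2025 cells and 7863535 to 16506086 UMIs, and the epithelial-marker cells alone held 297751 to 1183878 UMIs per library. Implanted cGAMP replicate 1 stood apart from the other 7 libraries. It had the most cells (2025), the lowest median depth of ECs (2929 UMIs against 9387 to 14182 elsewhere) and 169 of the 414 epithelial-marker cells. Several values that rest on this library are given with and without it, and the other pooled values include it. Cell barcodes shared between libraries numbered 7 and covered 14 cells, of which 2 were epithelial-marker cells, and no such barcode joined 2 of them.

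The epithelial-marker cells were checked first against endothelial markers. The endothelial rule asked for a UMI for at least 3 of Pecam1, Cdh5, Cldn5, Tie1, Egfl7 and Esam. In all comparisons, ECs are the cells that met this rule and were not epithelial-marker cells. The ECs were not filtered on mural genes. Of the 414 epithelial-marker cells, 361 (87.2%; Wilson 95% interval 83.6 to 90.1%, for counting error only) met this endothelial rule, and 150 carried all 6 endothelial genes. Without implanted cGAMP replicate 1 the share was 94.3% (231 of 245). By library, 53 of 57 and 30 of 30 cells met it in spontaneous PBS, 43 of 44 and 41 of 45 in spontaneous cGAMP, and 32 of 33 and 23 of 26 in implanted PBS. In implanted cGAMP the counts were 130 of 169 in replicate 1 and 9 of 10 in replicate 2. The lowest share was thus that of implanted cGAMP replicate 1, at 76.9%. Of all sorted cells 899 of 8204 did not meet the rule, against 53 of the 414 epithelial-marker cells. In implanted cGAMP replicate 1 the counts were 420 of 2025 against 39 of 169, and in the other libraries 479 of 6179 against 14 of 245. The epithelial-marker cells thus met the endothelial rule about as often as all cells of these libraries. Only 7 cells had none of the 6 endothelial genes, and the 53 cells that did not meet the endothelial rule included 39 from implanted cGAMP replicate 1. These 53 cells were shallow, with a median of 1501 UMIs against 12067 UMIs for the 361 cells that met it. This contrast mixes libraries of unlike depth, and within implanted cGAMP replicate 1 the medians were 1554 against 2897 UMIs. A shallower cell also has fewer chances to show 3 endothelial genes. Doublets, 2 cells in 1 droplet, were not called and their part in these cells was not tested.

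**Figure D1:**
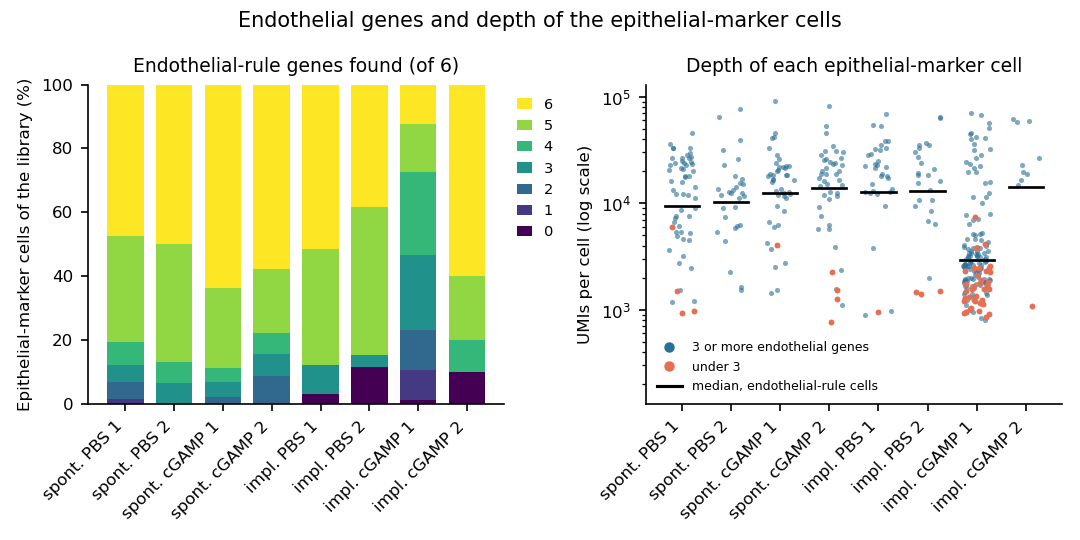
Left, share of the epithelial-marker cells of each library (y axis, percent) by how many of the 6 endothelial genes had a UMI (colours, 0 to 6); right, UMIs of each epithelial-marker cell (points, log scale) by library, with cells under 3 endothelial genes in orange and the median of the ECs as a black line. Of the 414 cells 361 have 3 or more endothelial genes, 39 of the 53 others are in implanted cGAMP replicate 1, and in 7 of 8 libraries the epithelial-marker cells lie mostly above the EC median.

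The evidence for epithelial transcripts was thin in most cells. Of the 414 cells, 267 carried exactly 3 of the 6 markers, 93 carried 4, 31 carried 5 and 23 carried all 6. Of the 1466 marker detections, 996 (67.9%) rested on a single UMI, and 174 cells had no marker above 1 UMI. Without implanted cGAMP replicate 1 these were 603 of 847 detections (71.2%) and 124 of 245 cells. The median was 4 marker UMIs per cell. Cells just outside the rule, with 2 of the 6 markers, numbered 973, and 92.3% of them met the endothelial rule, against 87.3% of the 267 cells just inside it. Over all libraries the summed level of 20 further epithelial genes was 1041 CPM (counts per 1000000, from each cell's UMIs scaled to that total and averaged over cells) with 2 markers and 2239 CPM with 3. Without implanted cGAMP replicate 1 these levels were 468 CPM with 2 markers and 656 CPM with 3. In these other 7 libraries the level was 434 CPM with 0 markers and 443 CPM with 1, so it rose more from 2 to 3 markers than from 0 to 2. Genes of luminal progenitors and milk-secreting cells summed to 1088 CPM with 2 markers and 1586 CPM with 3. The share that met the endothelial rule differed little there, at 96.0% with 2 markers and 95.3% with 3.

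The 23 cells with all 6 markers fell into unlike sets by library. In the 7 libraries other than implanted cGAMP replicate 1 there were 14 of them, with a median of 32103.5 UMIs (range 14826 to 81853) against a median of 12052 UMIs in the ECs of these libraries. All 14 met the endothelial rule with 5 or 6 of its genes, and they carried 3 to 15 (median 11) of the 20 further epithelial genes. Their summed level of 15 endothelial genes was 6146 CPM against 10011 CPM in ECs. These deep cells thus carried many genes of both kinds at once. In implanted cGAMP replicate 1 there were 9 cells with all 6 markers, with a median of 3795 UMIs (range 1789 to 44128), and 8 of them met the endothelial rule.

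The cells were not shallow in general. The ratio of their median UMIs to that of the ECs of the same library was 1.42 and 1.22 after PBS and 1.34 and 1.17 after cGAMP in spontaneous tumours, and 1.67 and 1.32 after PBS and 0.865 and 1.49 after cGAMP in implanted tumours. The epithelial-marker cells were thus the deeper cells in 7 of 8 libraries, and implanted cGAMP replicate 1 was the exception. In that library their median was 2534 UMIs and 38.5% of them had fewer than 2000 UMIs, against 4.55 to 15.4% in the other libraries. A deeper cell has more chances to show 3 markers, so the share of cells was also taken after every cell was thinned to 1000 UMIs.

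Epithelial-marker cells made up 57 of 1040 cells (5.48%) and 30 of 674 cells (4.45%) in spontaneous PBS, and 44 of 741 (5.94%) and 45 of 781 (5.76%) in spontaneous cGAMP. In implanted PBS they made up 33 of 1099 (3.0%) and 26 of 1190 (2.18%). In implanted cGAMP the replicates were far apart, at 169 of 2025 (8.35%; Wilson 95% interval 7.22 to 9.63%) and 10 of 654 (1.53%; 0.833 to 2.79%). One of these libraries had the highest share of all 8 and the other the lowest. As group means the shares were 4.97% ± 0.728 (SD, n = 2) after PBS and 5.85% ± 0.125 after cGAMP in spontaneous tumours, and 2.59% ± 0.578 and 4.94% ± 4.82 in implanted tumours.

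Across all 8 libraries the difference in share between treatments did not pass the test. It was 1.61 percentage points higher after cGAMP than after PBS (exact permutation test within models, two-sided, p = 0.444, 36 arrangements) and 1.64 points lower in implanted than in spontaneous tumours (-1.64, exact permutation p = 0.444). Within 1 model the test has 6 arrangements and cannot go below a p of 0.333. There the difference after cGAMP was 0.884 points in spontaneous tumours (exact permutation p = 0.333) and 2.34 points in implanted tumours (exact permutation p = 1). Without implanted cGAMP replicate 1 the difference in implanted tumours was -1.06 points and that between models -3.17 points (exact permutation p = 0.0556). The difference after cGAMP without implanted cGAMP replicate 2 was 2.90 points over both models (exact permutation p = 0.0556) and 5.75 points in implanted tumours (exact permutation p = 0.333). A two-sided p of 0.0556 is the smallest that the stratified test allows, in the full set and with either of these libraries left out. The sort gate can set such shares, and its part was not tested.

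After thinning to 1000 UMIs, which left out 563 shallower cells (16 of them epithelial-marker cells), 72 cells met the rule. They made up 0.697% and 0.153% of cells after PBS and 0.138% and 0.666% after cGAMP in spontaneous tumours. In implanted PBS they made up 0 of 1057 cells, which allows a share of up to 0.284%, and 0.173%. In implanted cGAMP they made up 3.26% (Wilson 95% interval 2.50 to 4.23%) and 0.313%. The difference between models was then 0.522 points (exact permutation test, two-sided, p = 0.778) and that after cGAMP in spontaneous tumours -0.0233 points (p = 0.667), both of the opposite sign to the unthinned values. At equal depth 54 of the 72 cells thus came from implanted cGAMP replicate 1. Epcam had a UMI in 23.4% of the thinned epithelial-marker cells and in 2.72% of the thinned ECs. Without implanted cGAMP replicate 1 these shares were 10.5% and 1.97%, and the other 7 libraries ran from 0 to 16.4% of the epithelial-marker cells against 42.8% in that library. Pecam1 had a UMI in 56.0% of the thinned epithelial-marker cells and 63.9% of the thinned ECs, and in 65.7% and 64.8% without implanted cGAMP replicate 1. In that library the shares with Pecam1 were 41.5% and 60.2%, whereas in spontaneous cGAMP replicate 1 they were 75.0% and 58.5%. Cdh5 had one in 57.0% and 64.7%, and in 61.5% and 64.7% without implanted cGAMP replicate 1.

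**Figure D2:**
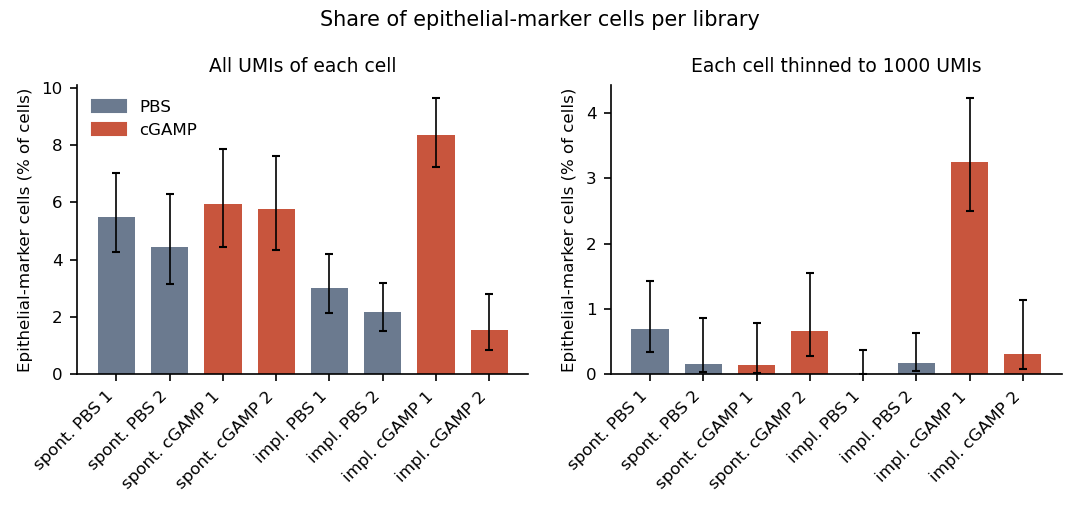
Share of epithelial-marker cells (bars, y axis, percent of cells) in each of the 8 libraries (x axis, PBS grey and cGAMP red), from all UMIs on the left and after thinning each cell to 1000 UMIs on the right, with Wilson 95% intervals that cover counting error only. The highest unthinned share is 8.35% in implanted cGAMP replicate 1 and the lowest 1.53% in implanted cGAMP replicate 2, and after thinning implanted cGAMP replicate 1 lies at 3.26% with the other libraries under 1%.

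The markers that chose the cells varied widely between libraries. In spontaneous tumours Epcam stood at 242 and 86.2 CPM after PBS and 114 and 186 CPM after cGAMP, and in implanted tumours at 126 and 229 and 579 and 168 CPM. Krt18 stood at 176 and 153, 111 and 196, 78.5 and 293 and 680.3 and 281 CPM in the same order, and Sox9 at 64.3 and 46.3, 31.5 and 42.4, 94.8 and 44.6 and 299 and 15.1 CPM. For each of these 3 genes the highest library was implanted cGAMP replicate 1. Its epithelial-marker cells had a median of 2534 UMIs, against 12437 to 21511 in the other libraries. The rule asks for at least 3 marker UMIs in every cell, which is a higher summed CPM in a shallower cell. Differences of these levels between libraries are thus in part set by the rule and by depth. Pooled over libraries, a UMI was found in 72.2% of the epithelial-marker cells for Epcam, 71.5% for Krt18, 62.3% for Fxyd3, 60.9% for Krt8, 48.3% for Cldn3 and 38.9% for Sox9. The ECs exclude the epithelial-marker cells, which lowers their marker shares. They were still not free of the markers: 14.2% carried Epcam, 15.6% Krt18, 11.7% Fxyd3, 13.2% Krt8, 6.25% Cldn3 and 4.52% Sox9. A low level of epithelial transcripts was thus present across the sorted cells.

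The summed level of epithelial genes that the rule did not use was also higher in the epithelial-marker cells than in ECs of the same libraries, most of it from the secreted lipocalin Lcn2. The 20 further epithelial genes, which include E-cadherin (Cdh1), claudins, keratins and Lcn2, summed to 964 and 563 CPM after PBS and 1044 and 1300.0 CPM after cGAMP in spontaneous tumours. In implanted tumours they summed to 761 and 1147 CPM after PBS and to 6354 and 1395 CPM after cGAMP. The ECs summed to 327 to 552 CPM in 7 libraries and to 1156 CPM in implanted cGAMP replicate 1. The ratio ran from 172% to 550% of the EC level. Lcn2 made up 44.6 to 82.9% of the sum in the epithelial-marker cells. Without Lcn2 the other 19 genes summed to 179 to 391 CPM in 7 libraries and 1142 CPM in implanted cGAMP replicate 1, at 113% to 381% of the EC level. Of these 19 genes, 5 were higher than in ECs in implanted PBS replicate 1, 9 in implanted PBS replicate 2 and in implanted cGAMP replicate 2, and 11 to 17 in the other libraries. Over the 10 genes of the list with at least 1 CPM in the ECs of every library, the median gene stood at 84.7% of the EC level in spontaneous cGAMP replicate 1 and at 72.3% in implanted PBS replicate 1, and at 192% to 485% in the others. Genes of luminal progenitors and milk-secreting cells (18 genes) summed to 2327, 1756, 1809, 3246, 1323, 1824, 4814 and 1479 CPM in the epithelial-marker cells of the 8 libraries, PBS before cGAMP and spontaneous before implanted tumours, against 440 to 1136 CPM in ECs. In each library both sums were higher in the epithelial-marker cells.

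Endothelial genes were lower in the same cells, but far from absent. The 15 endothelial genes summed to 8993 and 10449.5 CPM after PBS and 10001 and 9264 CPM after cGAMP in spontaneous tumours, and to 8542 and 7644 CPM and 5709 and 8714 CPM in implanted tumours. This was 62.6% of the EC level in implanted cGAMP replicate 1 and up to 99.4% in the other libraries. No library had an endothelial sum near 0.

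**Figure D3:**
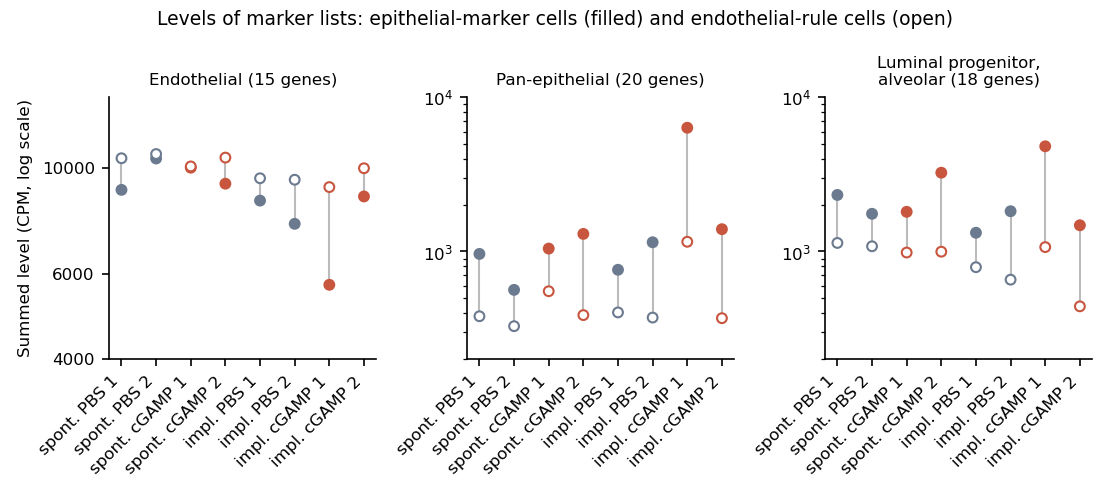
Summed level (y axis, CPM, log scale) of 15 endothelial, 20 further epithelial and 18 luminal secretory genes in the epithelial-marker cells (filled points) and the ECs (open points) of each library (x axis, PBS grey and cGAMP red). The endothelial sum of the epithelial-marker cells stays between 5709 and 10449.5 CPM, and their further epithelial sum is highest in implanted cGAMP replicate 1 at 6354 CPM.

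The genes that led the epithelial-marker cells over ECs, after the 6 markers themselves, were mostly those of secretory mammary epithelium. They were ranked by the ratio of the summed level over all 8 libraries among the 6075 genes found in at least 10% of the cells in every library. Spp1, which encodes the secreted phosphoprotein osteopontin, was 5.52-fold higher (3.75-fold without implanted cGAMP replicate 1), Lcn2 4.32-fold (3.32-fold), Wfdc18, a secreted protein of the mammary gland, 4.09-fold (3.55-fold) and Csn3, kappa-casein, 3.24-fold (2.92-fold). Plet1, the water channel Aqp5, the insulin-like growth factor binding protein Igfbp5, transferrin (Trf) and ezrin (Ezr) completed the 15 genes, at 2.28-fold to 5.09-fold. Lcn2, Wfdc18, Igfbp5, Csn3 and Trf were higher in 8 of 8 libraries, and Spp1, Plet1, Aqp5 and Ezr in 7 of 8.

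Several of these secreted-protein genes were widespread in the ECs as well. Lcn2 had a UMI in 71.0% of ECs, Csn3 in 64.5% and Wfdc18 in 58.8%. In the thinned cells the shares with Lcn2, Csn3 and Wfdc18 were 19.1%, 15.4% and 12.8% of ECs against 50.5%, 39.4% and 36.7% of epithelial-marker cells. Without implanted cGAMP replicate 1 they were 15.5%, 15.1% and 11.95% of ECs against 31.0%, 26.8% and 23.4% of epithelial-marker cells, and in that library alone 79.9%, 58.5% and 56.6% of the epithelial-marker cells had them. The order turned in implanted PBS replicate 1 for Csn3 (6.67% against 11.6% of ECs) and Wfdc18 (10.0% against 13.7%), and in implanted cGAMP replicate 2 for Csn3 (0 of 10 cells against 3.01%). In the epithelial-marker cells Lcn2 stood at 581 and 251 CPM after PBS and 865 and 1012 CPM after cGAMP in spontaneous tumours, and at 509 and 757 and 5211 and 1069.7 CPM in implanted tumours. The proportions of the 3 genes were close in both kinds of cell in some libraries and not in others. In implanted cGAMP replicate 1 Lcn2, Csn3 and Wfdc18 made up 62.6%, 17.2% and 20.2% of their sum in epithelial-marker cells and 60.4%, 20.6% and 19.1% in ECs. In implanted cGAMP replicate 2, with 10 epithelial-marker cells, the proportions were 59.1%, 1.99% and 38.9% against 68.0%, 10.6% and 21.4%. RNA free in the suspension enters droplets of every cell type, and its part in these levels was not tested.

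Within implanted cGAMP replicate 1 the 39 epithelial-marker cells that did not meet the endothelial rule were compared with the 130 that did. Their endothelial genes summed to 2760.2 CPM against 6594 CPM, their further epithelial genes to 7737 against 5939 CPM, and their luminal secretory genes to 6636 against 4268 CPM. The interferon-stimulated list described next summed to 13052 CPM in the 39 cells, 15362 CPM in the 130 cells and 14587 CPM in the ECs. The endothelial rule chose between these cells, so the first difference is fixed by it. The 39 cells were also shallower, with a median of 1554 UMIs against 2897 UMIs. At least 3 marker UMIs are a larger part of a shallower cell, so the epithelial differences are not free of selection.

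Markers of other cell types were checked in the same cells. Immune genes (12 genes) summed to 2.90 to 373 CPM over the libraries. They were highest in implanted cGAMP replicate 2, at 373 CPM in 10 epithelial-marker cells against 66.7 CPM in ECs, and stood at 135 against 27.3 CPM in implanted PBS replicate 1 and at 328 against 289 CPM in implanted cGAMP replicate 1. Mural genes, 3 of which the rule used, summed to 53.2 to 131 CPM against 64.2 to 798 CPM in ECs. Fibroblast genes (8 genes) summed to 2.09 to 121 CPM and erythroid genes (4 genes) to 0 to 26.6 CPM, against 21.6 to 221 and 0.276 to 39.7 CPM in ECs. Over all libraries each of the 12 immune and 8 fibroblast genes had a UMI in the epithelial-marker cells, as did 3 of the 4 erythroid genes. Basal and myoepithelial genes (10 genes) summed to 110 to 893 CPM, and hormone-sensing luminal genes (9 genes) to 575 to 3927 CPM, most of it from Ly6a, which ECs also express and interferon induces. The part of such cells in the results was not tested.

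The response to cGAMP was then tested with limma on log2(CPM + 10) of the mean over the epithelial-marker cells of each library, for 4174 genes that reached 50 CPM in 2 or more libraries, with Benjamini-Hochberg adjustment over all 4174 genes and a call at an adjusted p below 0.05. A fold change on this scale understates the change of low genes. In bulk means of this kind, fewer cells of a type and less RNA per cell cannot be told apart. In spontaneous tumours 120 genes were called (2.87% of those tested), 113 higher (2.71%) and 7 lower (0.168%). The higher genes were led by interferon-stimulated genes and by chemokines that recruit monocytes and T cells. Over all genes tested the median log2 change was -0.08. The count was 75 without spontaneous PBS replicate 2, 66 without spontaneous cGAMP replicate 1 and 61 without spontaneous cGAMP replicate 2, where a lone library is assumed to vary like the other groups.

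Isg15, the ubiquitin-like modifier, stood at 36.9 and 58.3 CPM after PBS and at 1518 and 1463 CPM after cGAMP in spontaneous tumours (log2 fold change 4.73 ± 0.25 (SE), adjusted p = 2.94e-07, limma). Irf7, the transcription factor that amplifies interferon output, stood at 14.7 and 26.5 CPM after PBS and 1311 and 1404 CPM after cGAMP (log2 fold change 5.51 ± 0.28 (SE), adjusted p = 2.94e-07, limma). Ccl5, a chemokine for T cells, stood at 1.63 and 0 CPM after PBS and 1268 and 2914 CPM after cGAMP (adjusted p = 2.94e-07, limma). Each of the 3 genes was higher in both cGAMP libraries than in both PBS libraries. On the summed UMIs Ccl5 was 1871-fold higher (95% counting interval 518 to 15452), with 2 UMIs in the PBS cells. Ifit3 had 0 UMIs after PBS and 309 and 437 CPM after cGAMP, at least 178-fold higher if 3 UMIs are allowed to the 2 PBS libraries together (adjusted p = 1.09e-05, limma).

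Ifit1, which binds foreign RNA, stood at 8.67 and 0 CPM after PBS and 379 and 436 CPM after cGAMP, and Ifi27l2a at 3.95 and 1.38 and 574 and 499.8 CPM. Cxcl9, a chemokine induced chiefly by interferon-gamma, stood at 123 and 2.7 CPM after PBS and at 1208 and 1783 CPM after cGAMP (log2 fold change 5.17 ± 0.77 (SE), adjusted p = 0.00157, limma). The PBS replicates of Cxcl9 lay far apart, yet both lay below the cGAMP libraries. Ccl2, a monocyte chemokine, stood at 1.59 and 0 CPM after PBS and 424 and 110.3 CPM after cGAMP, a ratio of 151 on summed UMIs (95% counting interval 51.4 to 734, with 3 UMIs after PBS). These 8 higher genes (Ccl5, Irf7, Ifi27l2a, Ifit3, Cxcl9, Ifit1, Isg15 and Ccl2) stayed called when any 1 library was left out. With at least 4 of the 6 markers, which leaves 5 libraries, spontaneous cGAMP was the only group that kept both replicates. All spread between replicates then comes from that group. Under this rule Cxcl9 and Ccl2 had smaller log2 fold changes of 0.87 and 2.19.

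The lower genes in spontaneous tumours changed less. Tagln, an actin-binding protein of contractile cells, stood at 159.9 and 189.8 CPM after PBS and 18.7 and 33.8 CPM after cGAMP (log2 fold change -2.38 ± 0.40 (SE), adjusted p = 0.00405, limma). Ifi27 fell from 231 and 223 CPM to 38.9 and 81 CPM (log2 fold change -1.83 ± 0.34 (SE), adjusted p = 0.00846, limma). Aldh2, Crip1, Prdx4 and Ltbp4 had log2 fold changes of -1.53, -1.27, -1.12 and -1.05. Each of these 6 lost its call without at least 1 of the spontaneous libraries, Tagln without spontaneous PBS replicate 2 (adjusted p = 0.0592, limma) or without spontaneous cGAMP replicate 1 (adjusted p = 0.0767). Tagln with at least 4 markers stood at -1.02 (adjusted p = 0.848, limma) and Crip1 at -0.78 (adjusted p = 0.440), and Prdx4 and Ltbp4 also lost their calls.

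In implanted tumours 213 genes were called (5.10%), 121 higher (2.90%) and 92 lower (2.20%), with a median of all genes of -0.13. With median-of-ratios factors the count was 162 and the share of higher genes 71.6% instead of 56.8%. The count depended on single libraries. It was 553 without implanted cGAMP replicate 1, 58 without implanted PBS replicate 2, 79 without implanted PBS replicate 1, 141 without spontaneous PBS replicate 2 and 121 without either spontaneous cGAMP replicate. The numbers behind the implanted cGAMP means were 169 and 10 cells.

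Ccl5 again led, at 2.82 and 0.606 CPM after PBS and 3599 and 7128 CPM after cGAMP (ratio 1509.7 on summed UMIs, 95% counting interval 516 to 7323, with 3 UMIs after PBS, and adjusted p = 1.22e-07, limma). Rsad2, the antiviral enzyme viperin, stood at 5.55 and 22.6 CPM after PBS and 577 and 2823 CPM after cGAMP (log2 fold change 5.84 ± 0.73 (SE), adjusted p = 0.000779, limma). Irf7 stood at 65.2 and 81.7 CPM after PBS and 1131 and 1706 CPM after cGAMP (log2 fold change 4.07 ± 0.28 (SE), adjusted p = 8.34e-06, limma). All 3 were separated between the groups. Ccl7, another monocyte chemokine, had 0 UMIs after PBS and 109 and 465 CPM after cGAMP, at least 53.1-fold higher by the same allowance of 3 UMIs, and Ccl2 stood at 6.04 and 2.01 and 349 and 575 CPM. Oasl1, Isg20 and Ifit1 had log2 fold changes of 4.56 ± 0.48, 4.51 ± 0.51 and 4.08 ± 0.35 (SE). These 8 higher genes (Ccl5, Rsad2, Irf7, Ccl7, Ccl2, Oasl1, Isg20 and Ifit1) stayed called in every leave-one-out fit that held them. With at least 4 markers a single implanted library was left per treatment, and the log2 fold change was 4.24 for Ccl2 and 3.37 for Rsad2.

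The lower genes in implanted tumours were led by Selp and Vwf, which venous endothelium stores for release. Selp, P-selectin, stood at 345 and 603 CPM after PBS and 68.1 and 6.75 CPM after cGAMP (log2 fold change -3.69 ± 0.54 (SE), adjusted p = 0.00228, limma). Vwf, von Willebrand factor, stood at 279 and 356 CPM after PBS and 37.5 and 6.02 CPM after cGAMP (log2 fold change -3.56 ± 0.48 (SE), adjusted p = 0.00125, limma). Both cGAMP libraries lay below both PBS libraries for the 2 genes. Bgn, Stmn1, Slco2a1, Nes, Siva1 and Col15a1 followed with log2 fold changes of -2.50, -2.41, -1.81, -1.78, -1.75 and -1.73. Among these 8 lower genes Vwf alone stayed called without any 1 library, and Selp lost its call without implanted PBS replicate 2 (adjusted p = 0.0515, limma). With at least 4 markers, and so a single implanted library per treatment, Bgn, Slco2a1 and Siva1 moved to log2 fold changes of -0.43, -0.88 and -1.48. Vwf stood at -2.25 there.

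The interferon-stimulated list moved in nearly all of its members. Of its 36 genes 35 were tested, and 31 were called higher in spontaneous tumours (median log2 fold change 2.70) and 30 in implanted tumours (median 2.71), with none called lower. Both medians stayed at these values when the gene with 0 UMIs after PBS (Ifit3 in spontaneous, Mx1 in implanted tumours) was set to its bound. Besides Isg15 and Irf7, Bst2, the tetherin that holds virions at the membrane, stood at 84.1 and 104 CPM after PBS and 1281 and 1378 CPM after cGAMP in spontaneous tumours (log2 fold change 3.69 ± 0.22 (SE), adjusted p = 9.27e-07, limma), and at 251 and 221 and 1646 and 2190.3 CPM in implanted tumours (log2 fold change 2.96 ± 0.22 (SE), adjusted p = 1.2e-05, limma). In ECs of the same libraries all 35 genes were called higher in either model, with medians of 2.58 and 2.18.

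The promoters of Isg15, Bst2 and Irf7 are shown because these were the 3 interferon-stimulated genes of highest mean level called in both models. Each sequence is the 250 bases before the start of transcription, written 5′ to 3′ on the gene's strand (RefSeq, GRCm38.p6), with the core of the interferon-stimulated response element, GAAA and GAAA with any 2 bases between on either strand, in capitals. They lie at chr4:156200819-156201068 for Isg15, chr8:71537473-71537722 for Bst2 and chr7:141266425-141266674 for Irf7, all on the minus strand.
Isg15: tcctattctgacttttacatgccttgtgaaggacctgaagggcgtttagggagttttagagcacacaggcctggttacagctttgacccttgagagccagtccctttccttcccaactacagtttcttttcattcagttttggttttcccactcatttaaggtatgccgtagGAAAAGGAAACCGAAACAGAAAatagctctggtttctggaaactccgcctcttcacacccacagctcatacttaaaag
Bst2: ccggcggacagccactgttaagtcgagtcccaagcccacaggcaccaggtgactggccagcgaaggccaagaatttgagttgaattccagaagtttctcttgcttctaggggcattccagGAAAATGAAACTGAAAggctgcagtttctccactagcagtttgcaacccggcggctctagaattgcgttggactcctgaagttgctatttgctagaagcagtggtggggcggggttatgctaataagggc
Irf7: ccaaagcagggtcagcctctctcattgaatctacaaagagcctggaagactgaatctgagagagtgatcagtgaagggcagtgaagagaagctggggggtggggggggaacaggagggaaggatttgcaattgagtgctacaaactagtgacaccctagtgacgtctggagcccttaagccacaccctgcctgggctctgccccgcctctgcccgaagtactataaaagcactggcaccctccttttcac
Isg15 held 3 overlapping cores, which start at positions -78, -72 and -66 from the start site, and Bst2 held 2 overlapping cores at -130 and -124. Irf7 held 0 in this window, which says only that these letters are not there. Of the interferon-stimulated list, the 27 genes with a promoter in the RefSeq table included 10 with a core (37.0%), against 137 of the 3284 tested genes with one in the table (4.17%) and 978 of all 32851 promoters (2.98%). A match is a description of the letters and not evidence of binding.

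Genes of the interferon-gamma response and of antigen presentation (30 genes, 27 tested) were called higher in 20 cases in spontaneous tumours (median log2 fold change 2.25) and in 8 cases in implanted tumours (median 0.91), with none lower. Chemokine and survival targets of TNF and NF-kB (25 genes, 12 tested) were called in 2 cases in either model, Ccl5 and Ccl2, both higher.

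Among genes of the STING pathway and of interferon and TNF receptors (7 of 15 tested), none was called in spontaneous tumours, and in implanted tumours Ifngr1, the interferon-gamma receptor chain, was the single call (log2 fold change -1.21 ± 0.29 (SE), adjusted p = 0.0326, limma), and it was lower. Tmem173, which encodes STING, stood at 125 and 76.4 CPM and 137 and 78.7 CPM in spontaneous tumours after PBS and cGAMP, and at 114 and 136 and 124 and 148 CPM in implanted tumours. Its log2 fold changes of 0.08 ± 0.32 and 0.11 ± 0.32 (SE) were not called (adjusted p = 0.968 and 0.888, limma).

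Genes of cell death, survival and hypoxia are read against the 2.71% and 2.90% of all tested genes called higher in spontaneous and implanted tumours. Of 11 tested pro-apoptotic and necroptotic genes, Casp4, the inflammatory caspase, was called higher in spontaneous tumours and Mlkl, the effector of necroptosis, in implanted tumours. Of 6 tested survival genes none was called in either model. Proliferation genes were too low for most to be tested (4 of 21), and none of the 4 was called, with medians of -1.63 and -1.59. Of 12 tested hypoxia genes, Adm and Ankrd37 were called higher in spontaneous tumours and Vegfa and Adm in implanted tumours. Vegfa, the chief angiogenic growth factor, was also the single call among 9 tested ligands.

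Calls among genes of the epithelial programmes were counted against the same shares, beside 0.168% and 2.20% called lower. Of the 10 tested luminal secretory genes none was called in spontaneous tumours, and Ltf, lactoferrin, and Wfdc18 were called higher in implanted tumours, Wfdc18 at 267 and 422 CPM after PBS and 1682 and 705 CPM after cGAMP (log2 fold change 1.67 ± 0.41 (SE), adjusted p = 0.0402, limma). Of 2 tested further epithelial genes none was called in either model. Of 5 tested mesenchymal genes Vim was called lower in implanted tumours. Of 12 tested immediate early genes Dusp1 and Ier2 were called higher in implanted tumours. Of 14 tested endothelial genes none was called in spontaneous tumours, and Ptprb and Vwf were called lower in implanted tumours. The single tested hormone-sensing luminal gene, Ly6a, was called higher in both models, and of 3 tested basal genes Tagln, lower in spontaneous tumours, was the single call. Of 2 tested immune genes none was called in either model, and no fibroblast or erythroid gene was tested. The markers and mural genes that chose the cells are left out of these counts, as is the rest of the mural list.

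The responses of the epithelial-marker cells were set beside those of the ECs in the same libraries. For the same 4174 genes 985 (23.6%) were called in ECs of spontaneous tumours and 1604 (38.4%) in ECs of implanted tumours, from sets with many more cells. With median-of-ratios factors the share of higher genes among the EC calls was 66.7% instead of 36.6% in spontaneous tumours and 55.1% instead of 36.0% in implanted tumours. Of the 113 genes called higher in epithelial-marker cells of spontaneous tumours, 112 were also called higher in ECs (99.1% of the former and 31.0% of the ECs' 361, which were 8.65% of the genes tested), with medians over the 113 genes of 2.30 in epithelial-marker cells and 2.21 in ECs. In implanted tumours 113 of 121 were shared (93.4%, and 19.6% of the ECs' 578, which were 13.8% of the genes tested), with medians over the 121 genes of 1.89 and 1.46, and of the 92 lower genes 86 were shared (93.5%, and 8.38% of the ECs' 1026, which were 24.6% of the genes tested), with medians over the 92 genes of -1.27 and -0.61. These genes were chosen by their call in the epithelial-marker cells, which favours larger values there. A test of the difference between the 2 responses called no gene in either model with limma, with an unadjusted p below 0.05 for 109 and 276 of 4174 genes and a lowest adjusted p of 0.437 and 0.206. Without implanted cGAMP replicate 1 it called 1 gene in implanted tumours. Over the genes called higher the median difference was 0.11 in spontaneous and 0.43 in implanted tumours, beside a median SE of 0.32 in either, so that the absence of calls does not show that the responses were alike.

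**Figure D4:**
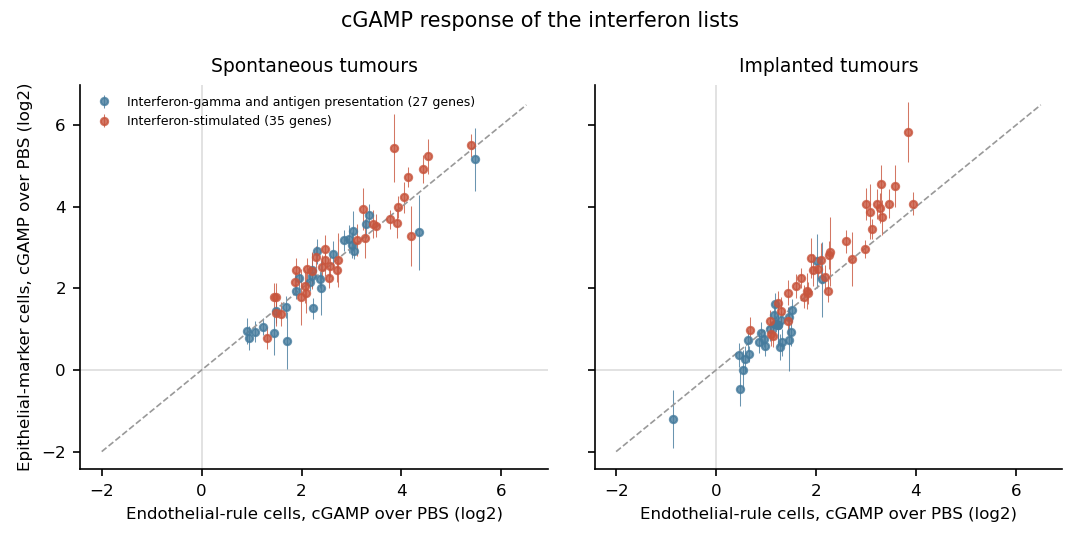
Log2 fold change after cGAMP in epithelial-marker cells (y axis, bars are SE) against that in ECs of the same libraries (x axis) for the 35 tested interferon-stimulated genes (red) and the 27 tested genes of the interferon-gamma and antigen presentation list (blue), in spontaneous (left) and implanted tumours (right), with the line of equal change dashed. The medians of the interferon-stimulated genes are 2.70 against 2.58 in spontaneous and 2.71 against 2.18 in implanted tumours.

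The models were compared within each treatment. After PBS 53 genes (1.27%) differed between the epithelial-marker cells of implanted and spontaneous tumours, 49 higher in implanted tumours (1.17%) and 4 lower (0.0958%), with a median of all genes of -0.03. The higher genes were led by genes of the interferon-gamma response and of antigen presentation. The ECs of the same libraries went the same way. Over 28 genes of that list, the ECs summed to 6462 and 6647 CPM in spontaneous PBS. In implanted PBS they summed to 20504.5 and 14320 CPM. The epithelial-marker cells summed to 6123 and 6651 CPM and to 21422 and 18237 CPM. The difference between models was not tested in ECs. Ubd, a ubiquitin-like modifier, stood at 26.4 and 0 CPM in spontaneous and 742 and 1230.2 CPM in implanted PBS (log2 fold change 5.66 ± 0.70 (SE), adjusted p = 0.00117, limma). Cxcl9 stood at 123 and 2.7 and 1740.3 and 1339 CPM (log2 fold change 5.23 ± 0.77 (SE), adjusted p = 0.00342, limma). Gbp2, an interferon-induced GTPase, stood at 31.3 and 45.2 and 741 and 660.03 CPM (log2 fold change 3.89 ± 0.27 (SE), adjusted p = 1.16e-05, limma). In each case both implanted libraries lay above both spontaneous ones.

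The class II genes Cd74, the invariant chain, and H2-Ab1 were also higher, with log2 fold changes of 4.79 ± 0.49 and 3.43 ± 0.31 (SE), as were Serpina3g, Serpinb1a and Gbp5 (3.98 ± 0.46, 3.24 ± 0.43 and 3.14 ± 0.32). Of the 27 tested genes of the interferon-gamma and antigen presentation list 18 were called higher (median 1.51), and of the 35 interferon-stimulated genes 8 (median 0.99). The 4 lower genes were Npnt, Tsc22d3, Hspb1 and Jun, with log2 fold changes of -1.84, -1.61, -1.53 and -0.91, and each lost its call without some library. The count of calls was 28 without spontaneous PBS replicate 2, 15 without implanted PBS replicate 1, 27 without implanted PBS replicate 2, 105 without implanted cGAMP replicate 1 and 95 without implanted cGAMP replicate 2. Cxcl9 lost its call without implanted PBS replicate 1 (adjusted p = 0.0988, limma) or replicate 2 (adjusted p = 0.0501). Ubd, Cd74, Gbp2, Serpina3g, H2-Ab1 and Gbp5 stayed called without any 1 library. With at least 4 markers a single library was left in either group, spontaneous PBS replicate 1 (17 cells) and implanted PBS replicate 2 (10 cells). Between these libraries Ubd, Gbp2 and Gbp5 stood at log2 fold changes of 3.69, 2.75 and 2.53. Under the same rule Cd74 fell to 0.59, H2-Ab1 to 0.70 and Cxcl9 to 1.16, and Serpina3g turned to -0.69.

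After cGAMP 6 genes (0.144%) differed between the models, all lower in implanted tumours, and 528 had an unadjusted p below 0.05. With median-of-ratios factors 7 genes were called, of which 14.3% were higher instead of 0. The 6 genes were Btnl9 (log2 fold change -2.74 ± 0.42 (SE), adjusted p = 0.027, limma), the endothelin receptor Ednrb, the apelin receptor Aplnr, the feedback inhibitor Spry1, the peptidase Prcp and the selenium carrier Selenop. Ednrb stood at 224 and 231 CPM in spontaneous and 62.7 and 18.8 CPM in implanted cGAMP, and Aplnr at 314 and 383 and 91.1 and 81.9 CPM. The count was 0 without spontaneous cGAMP replicate 1 or 2, 2 without implanted PBS replicate 1 or 2, 203 without implanted cGAMP replicate 1 and 76 without implanted cGAMP replicate 2.

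The response itself differed between models for 3 genes (0.0719%), while 279 had an unadjusted p below 0.05. All 3 were interferon-induced GTPases whose response was smaller in implanted tumours. The same difference was not tested in ECs. Iigp1 stood at 131 and 113 CPM and 1026 and 939 CPM in spontaneous tumours after PBS and cGAMP, and at 1135 and 1090.2 and 1352 and 1604 CPM in implanted tumours. Its response was thus 2.91 ± 0.20 (SE) in spontaneous and 0.40 ± 0.20 in implanted tumours on the log2 scale, a difference of -2.51 ± 0.28 (adjusted p = 0.00386, limma). The difference with at least 4 markers was -1.01 and was not called (adjusted p = 0.487, limma). The levels after PBS in implanted tumours already lay near those after cGAMP. The count was 11 without spontaneous PBS replicate 1, 1 without spontaneous cGAMP replicate 2, 0 without either implanted PBS replicate, 40 without implanted cGAMP replicate 1 and 44 without implanted cGAMP replicate 2. Between the models, which share no library, 72 genes were called in both responses (60% of those in spontaneous and 33.8% of those in implanted tumours), 69 higher in both and 3 lower in both.

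**Figure D5:**
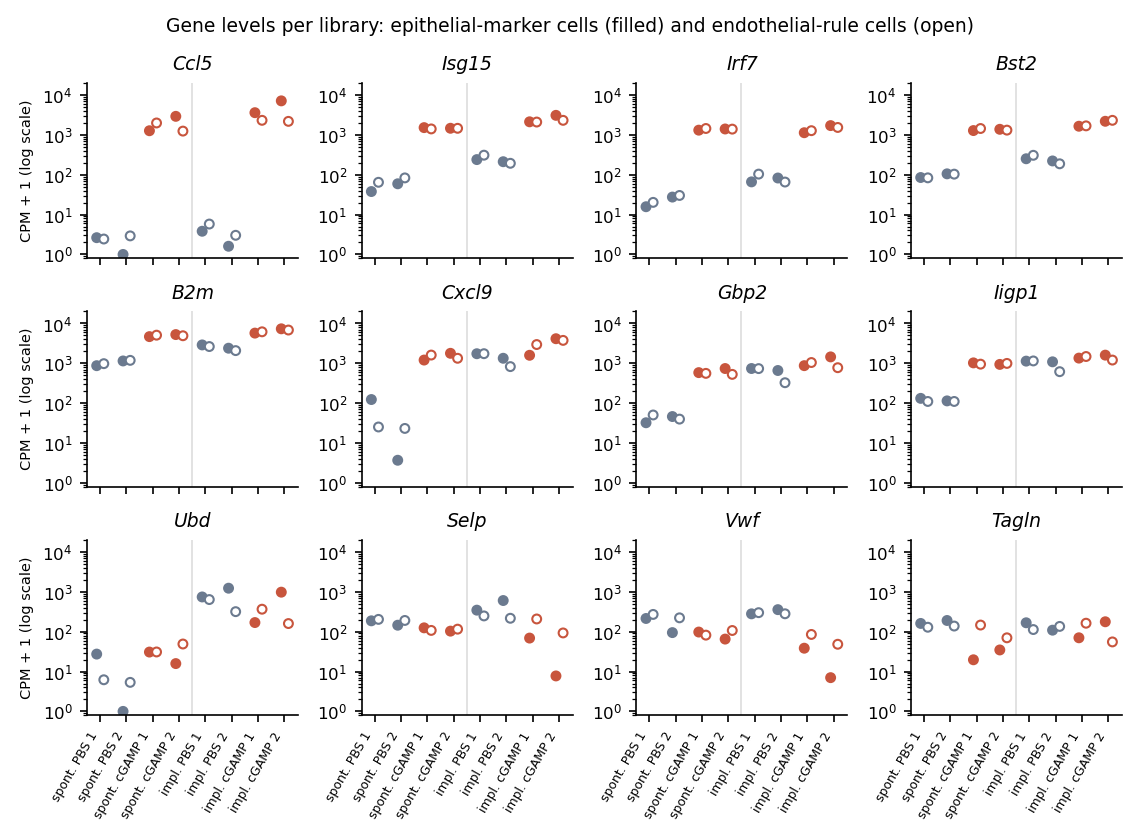
Level of 12 genes (y axis, CPM + 1 on a log scale) in the epithelial-marker cells (filled points) and the ECs (open points) of each library (x axis, PBS grey and cGAMP red). Ccl5, Irf7 and Isg15 are higher in every cGAMP library than in every PBS library of the same model, while Iigp1 and Gbp2 are already high in both implanted PBS libraries.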

How the data were processed

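The authors deposited 1 matrix per library of natural-log (ln) values, made with Cell Ranger 3.0.0 on mm10 and Seurat 3.1.1, as ln(1 + 10000 × UMIs / total UMIs of the cell), after removing cells with fewer than 500 genes or over 10% mitochondrial reads and genes in fewer than 3 cells. UMIs were worked back from the deposited natural-log values: 100% of values came out whole within 0.01. Depth was 7863535 to 16506086 UMIs per library. The deposited matrices still hold cells that the study later set aside as contaminants, and no doublet caller was run.

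Levels are CPM (counts per 1000000, each cell's UMIs scaled to that total) averaged over cells. Responses were tested with limma 3.58.1 (eBayes with trend, R 4.3.3) on log2(CPM + 10), 1 value per library with at least 10 epithelial-marker cells, all 8 libraries in 1 fit with a mean per group, for genes that reached 50 CPM in 2 or more libraries, with Benjamini-Hochberg adjustment over all genes and a call under 0.05. The response relative to ECs was tested on the per-library difference. The fit was checked on simulated data with known changes in implanted cGAMP. It called 5 of 50 genes raised 2-fold, 41 of 50 raised 4-fold, 9 of 50 multiplied by 0.5 and 33 of 50 multiplied by 0.25. Of 3911 unchanged genes it called 9. Most 2-fold changes were thus missed, so a gene that was not called may still have changed. The simulation drew summed UMIs per library with a fixed dispersion and not means over cells, so it does not hold the spread between cells. Shares were compared by exact permutation tests with Wilson 95% intervals, which cover counting error only. Python 3.11.15, numpy 2.4.6, pandas 2.3.3, scipy 1.17.1 and matplotlib 3.10.9 were used for the rest. Replicates are 2 libraries per group, from 2 mice. The limma p-values rest on a spread between replicate libraries that is pooled over the 4 groups and moderated over genes. That spread also holds the counting error of means over as few as 10 cells.

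Named genes are the 8 with the largest change in each direction among called genes whose groups do not overlap and whose mean is at least 50 CPM (for the difference of responses, the called genes of that mean), the 4 highest of each list, the 6 markers and the 15 genes leading over ECs. A called gene that the rule names is not reported here. Genes named from the list calls were chosen after their values were seen. The members and lists were chosen with earlier results of these data known. Alternatives were another scaling, pseudocounts of 1 and 50 CPM, no filter, summed UMIs, at least 4 markers, a replicate block and each library left out. Promoters come from RefSeq (GRCm38.p6).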

Additional observations from a re-analysis of the deposited data

Results flagged for a closer look

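The cGAMP response of 3 interferon-induced GTPase genes differed between the models in the epithelial-marker cells, by the interaction term of the limma fit. This difference was not tested in ECs, so it is not shown to be particular to these cells. In ECs 28 genes of the interferon-gamma list, which holds Iigp1 and Gbp2, summed to 6462 and 6647 CPM in spontaneous PBS. They summed to 29860 and 29300 CPM in spontaneous cGAMP, 20504.5 and 14320 CPM in implanted PBS and 38179 and 41062 CPM in implanted cGAMP. The difference (implanted minus spontaneous, log2) was -2.51 ± 0.28 (SE) for Iigp1 (adjusted p = 0.00386), -3.12 ± 0.39 for Gbp2 (adjusted p = 0.00620) and -2.13 ± 0.34 for Gbp7 (adjusted p = 0.0499). Gbp2 stood at 31.3 and 45.2 CPM in spontaneous PBS, 584 and 740.01 CPM in spontaneous cGAMP, 741 and 660.03 CPM in implanted PBS and 873 and 1449.9 CPM in implanted cGAMP. Gbp7 stood at 76.5 and 61.2, 656 and 539.7, 413 and 361, and 599 and 792 CPM in the same order. For each of the 3 genes every implanted PBS library lay above every spontaneous PBS library, and every cGAMP library lay above every PBS library of the same model. Iigp1 lost its call without implanted PBS replicate 1 (adjusted p = 0.0694, limma) or replicate 2 (adjusted p = 0.0586). Gbp2 lost it without spontaneous cGAMP replicate 2 (adjusted p = 0.0916, limma), implanted PBS replicate 1 (0.111) or implanted PBS replicate 2 (0.0723). Gbp7 lost it in 5 of 8 such fits, with adjusted p from 0.160 to 0.479 (limma). With at least 4 of the 6 markers, where only spontaneous cGAMP kept both replicates, the difference was -2.43 for Gbp2, -1.01 for Iigp1 and -1.08 for Gbp7. Gbp7 also lost its call with median-of-ratios factors (adjusted p = 0.110, limma), a pseudocount of 50 CPM (adjusted p = 0.126) and the replicate block (adjusted p = 0.117), and all 3 lost it with no filter on low values (adjusted p = 0.130 to 0.720).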

How the results depend on the processing

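Over 15 alternatives, 12 of the 52 results for named genes kept direction and call in all, and the sign turned once, for Serpina3g between models after PBS with at least 4 markers (log2 fold change -0.69). With spontaneous cGAMP as the only group that keeps both replicates, that rule leaves 5 libraries with 1 residual degree of freedom. Under it 19 of 50 such results lost their call, and with no filter on low values 36 of 52 did. The cause of the changes was not tested. With no filter on low values the counts of calls were 57 (cGAMP response, spontaneous), 49 (implanted), 0 (difference of responses), 6 (models after PBS) and 0 (models after cGAMP), with many more genes to adjust over. With UMIs summed per library they were 210 in spontaneous tumours, 30 for the difference, 112 after PBS and 2 after cGAMP, and 1 for the response relative to ECs in implanted tumours. With at least 4 markers they were 140 in implanted tumours, 64 for the difference, 35 after PBS, 70 after cGAMP, and 15 and 59 for the response relative to ECs in spontaneous and implanted tumours. A pseudocount of 1 CPM gave 6 calls for the difference, and one of 50 CPM gave 1 for the response relative to ECs in implanted tumours. Leaving out 1 library gave 61 to 168 calls in spontaneous tumours, 58 to 553 in implanted tumours, 0 to 44 for the difference, 15 to 105 between models after PBS, 0 to 203 after cGAMP and 0 to 1 for the response relative to ECs in implanted tumours. The difference in share between models was -1.64 points, but 0.522 after thinning and 0.348 for cells that did not meet the endothelial rule. The share of epithelial-marker cells meeting that rule was 94.3% without implanted cGAMP replicate 1, an alternative chosen after seeing the data, as were the thinned shares of single genes without that library and the epithelial sum without Lcn2. A fit on cells that did not meet it was not run, since a single library held at least 10 of them. With the replicate number as a block the counts were 116, 159, 2, 48 and 6, in the order first given, and 0 relative to ECs. The numbers did not pair the libraries: deviations of same-numbered libraries correlated at -0.0901 to 0.137 over 6 pairs of groups. The number of cells limits the values of implanted cGAMP replicate 2 (10 cells), and depth those of replicate 1 (a median of 2534 UMIs).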
